A study of Mus musculus with 9 samples.

Results

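Brain endothelial cells were chosen from single-cell RNA sequencing of mouse brain by 4 genes, Cldn5, Flt1, Ly6c1 and Slco1a4. A cell was taken as a member where these genes together held 3 or more UMIs (unique molecular identifiers, the tags that let each captured transcript be counted once). In 6 of the 9 libraries, 3787 of 19458 cells passed, and the whole series held 29571 cells. The question the 6 libraries were drawn together for was how endothelial cells of cortex and brainstem differ. That comparison could not be made, because the names that tie cells to libraries do not tie them to regions.

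Endothelial cells line the blood vessels, and those of the brain form the blood-brain barrier. They are sealed by tight junctions, take up glucose, amino acids and thyroid hormone through transporters, and pump foreign compounds back into the blood. Their profile changes along the vessel from artery through capillary to vein, and Wnt signals from the surrounding tissue maintain the barrier. In a few regions near the ventricles the vessels are instead fenestrated and carry Plvap.

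The study dissected brainstem, cortex and hypothalamus of male C57BL/6 J mice of 9 to 11 weeks at ZT12, the hour of lights off. The labels give the strain as C57BL/6. Mice of the NS group slept normally, and those of the SD group were kept awake for 12 h from lights on. Those of the RS group could recover after the same deprivation. The labels give a recovery of 24 h in 1 place and 12 h in another, and the study's own text gives 24 h. The tissue of 3 mice was pooled per region and group, dissociated with papain and cleared of myelin with beads, so each of the 9 combinations is 1 library without a replicate. Cell names carry a barcode and a library code, and no code matches a sample label. Libraries are numbered here 1 to 9 by the first appearance of their code, a number without meaning for region or sleep group. Library 7 is brainstem NS, since it held 1999 of 1999 barcodes that the study lists for that sample, against 5 to 13 in each other library. The codes of libraries 1, 2 and 3 share a stem, and those of libraries 7, 8 and 9 share another. What a stem stands for is not given in the sources used here. Region, handling and sequencing cannot be told apart behind it, and the sleep group of libraries 1, 2, 3, 8 and 9 is unknown. All values are therefore given per library, without a test between regions or sleep groups.

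The 6 libraries held 2575 to 3731 cells and 1522766 to 4875693 UMIs each. Endothelial cells gave 129, 365, 384, 1044, 900 and 965 members in libraries 1, 2, 3, 7, 8 and 9, with 71134 to 1339628 UMIs in sum. Their median depth was 483, 452, 812.5, 967, 795 and 1044 UMIs per cell in the same order. Library 1 has the widest counting intervals of gene levels, as its members are the fewest and hold the fewest UMIs. Any 2 of the 6 libraries shared 5 to 25 barcodes, at most 0.787% of a library, and 0 to 4 of these were members in both. Levels are a gene's UMIs summed over members and scaled by all their UMIs to CPM, with exact Poisson intervals. Intervals here are at 95% and cover counting error only. In droplets, free RNA and cell fragments carry transcripts into other cells. Levels were therefore also computed in cells of the same library with 0 UMIs of the 4 genes, called marker-negative cells below. These are printed for part of the genes. Marker-negative cells also express genes of their own, so their levels do not measure free RNA alone. Their microglial markers, for example, summed to 894 to 3703 CPM in libraries 1 to 3 and to 4390 to 10451 CPM in libraries 7 to 9. Taking their levels off can therefore remove more than free RNA.

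The rule was checked against the cell types that the study lists for part of library 7. It took 555 of 573 listed endothelial cells, 96.9% (exact Clopper-Pearson interval 95.1 to 98.1%). Of the 586 listed cells it took, 555 were listed as endothelial, 94.7% (92.6 to 96.4%). The remaining listed members were 13 cells of the type HbVC, 4 each of astrocytes, microglia and other neurons, 2 each of glutamatergic neurons and EPC, 1 macrophage and 1 pericyte. Those types were called by the study from the same counts, so this is a description. At the threshold, 341 cells had 3 UMIs of the 4 genes and 430 had 2. A UMI of at least 1 of 7 other endothelial genes (Pecam1, Cdh5, Egfl7, Esam, Itm2a, Ly6a and Pltp) was found in 92.7% of the former and 75.1% of the latter. Their median depths were 740 and 851.5 UMIs.

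Endothelial cells made up a smaller share of libraries 1 to 3 than of libraries 7 to 9. In library 1 the share was 5.01% (4.199 to 5.92%). Library 2 held 11.5% (10.4 to 12.7%) and library 3 held 13.99% (12.7 to 15.3%). Libraries 7, 8 and 9 followed with 28.0% (26.5 to 29.5%), 25.6% (24.1 to 27.1%) and 26.0% (24.6 to 27.4%). Library 9 did not keep its place when members with 3 or more UMIs of another cell type's markers were left out. It fell to 6.98%, below libraries 2 and 3 at 7.09 and 7.50%, while libraries 7 and 8 held 12.2 and 14.2%. With erythroid genes not counted as such markers, an alternative added after seeing the data, library 9 held 10.1%, above library 3 at 8.09%, and libraries 7 and 8 held 21.7 and 19.1%. In all members, the intervals of libraries 1 to 3 lay below all those of libraries 7 to 9, and the highest share was 5.59 times the lowest. Deeper cells pass a threshold on UMIs more easily, so the rule was also applied after thinning each cell to 500 UMIs. The shares were then 5.48, 11.3 and 12.2% in libraries 1 to 3 and 23.9, 22.2 and 18.2% in libraries 7 to 9. Libraries 8 and 9 changed places at equal depth, and all shares of libraries 7 to 9 remained above those of libraries 1 to 3. Thinning left out 1735 cells of library 1, 2036 of library 2, 26 of library 7 and 410 of library 8, among them 69, 204, 5 and 85 members. At 300 UMIs, a depth chosen after the values at 500 had been seen, the shares were 3.66 to 9.29% in libraries 1 to 3 and 11.8 to 16.8% in libraries 7 to 9. These are shares of captured cells, and the number of endothelial cells in the tissue was not measured.

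**Figure D1:**
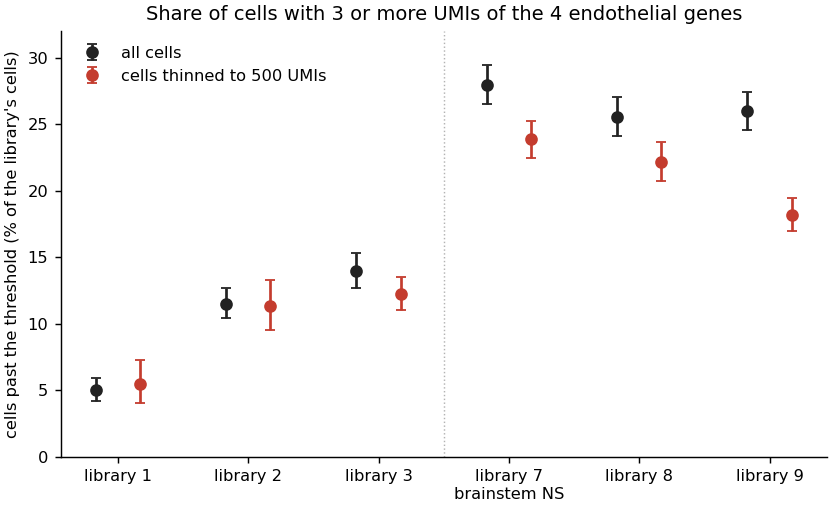
Share of each library's cells with 3 or more UMIs of Cldn5, Flt1, Ly6c1 and Slco1a4, in percent, for all cells (black) and for cells thinned to 500 UMIs (red), with exact Clopper-Pearson 95% intervals. The dotted line parts libraries 1 to 3, at 5.01 to 13.99%, from libraries 7 to 9, at 25.6 to 28.0%, and the red points stay apart at 5.48 to 12.2% and 18.2 to 23.9%.

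The 4 genes of the rule are given as a description, since they chose the cells. Cldn5, the main claudin of brain tight junctions, stood at 2193, 2516 and 2357 CPM in libraries 1, 2 and 3 and at 1346, 1297 and 915.9 CPM in libraries 7, 8 and 9. Flt1, a VEGF receptor, ran from 997.3 to 1480.4 CPM over the 6 libraries. Ly6c1, a surface protein of endothelial and some immune cells, ran from 2724 to 6049 CPM, and Slco1a4, an organic anion transporter, from 1957 to 2727 CPM. A shallow cell needs a larger part of its UMIs in these genes to pass, and the part of depth in their levels was not tested. In members thinned to 500 UMIs, Cldn5 was found in 58.3 to 65.4% in libraries 1 to 3 and 41.5 to 51.2% in libraries 7 to 9. Of the 3787 members, 1433 held a UMI of all 4 genes, 1506 of 3, 739 of 2 and 109 of 1.

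Ly6c1 has a near copy, Ly6c2, and both lie on chromosome 15 (GRCm38, minus strand), at 75044018 to 75048830 and at 75108158 to 75111970. Their coding sequences have 393 bases each and are identical at 97.7% of positions in the GENCODE vM21 transcripts, and the last 100 bases of the transcripts at 85.0% of aligned positions. The 30 coding bases where the copies differ most, bases 7 to 36 of the coding sequence, hold 5 of the 9 differing bases. They lie near the start of the coding sequence, and where reads fell along the transcripts was not checked. Reads of one copy may be counted for the other. Capitals mark the differing bases.
Ly6c1: aCtTctcacActacaaagtcctgtGtgctC
Ly6c2: aGtActcacGctacaaagtcctgtTtgctG
Ly6c2 stood at 28.1, 87.9 and 41.0 CPM in libraries 1 to 3 and at 235.7, 218.3 and 74.6 CPM in libraries 7 to 9, beside 0 to 4.48 CPM in marker-negative cells. Libraries 7 and 8 were high, while library 9 lay within the range of libraries 1 to 3. In members thinned to 500 UMIs, Ly6c2 was found in 1.04 to 1.86% in libraries 1 to 3 and in 13.2, 11.2 and 3.11% in libraries 7 to 9. How reads were split between the copies was not tested.

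The members carried the endothelial genes that the rule did not use. All 11 endothelial marker genes of 50 CPM or more outside the rule were at least 2 times higher in members than in marker-negative cells in every library, after adding 10 CPM to both sides. The median over these genes of the lowest fold among the 6 libraries was 9.04, beside 0.884 over the 2949 genes of 50 CPM or more. The cells were chosen on transcripts of the same cell type, so these folds describe the members and test nothing. By the lowest fold among the 6 libraries, the leading genes were Ly6a, Abcb1a, Pglyrp1, Adgrf5, Sema3c, Foxq1, Itm2a, Mal, Sox17 and Gkn3, at 21.8 down to 15.1.

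Ly6a, a surface protein induced by interferon and abundant on brain endothelium, stood at 2334, 3249 and 2580.2 CPM in libraries 1 to 3 and at 2577, 3159.9 and 1809 CPM in libraries 7 to 9. The stems overlapped, and marker-negative cells held 10.6 to 99.0 CPM. Itm2a, a membrane protein of barrier endothelium, ran from 3171 to 5840.3 CPM against 28.9 to 242 CPM in marker-negative cells. Abcb1a, the drug efflux pump P-glycoprotein, stood at 955.9, 957.6 and 712.3 CPM in libraries 1 to 3 and at 856.1, 864.7 and 583.0 CPM in libraries 7 to 9, again with overlap. Foxq1 and Sox17, transcription factors of brain endothelium, ran from 189 to 379.6 CPM and from 197 to 386 CPM. Adgrf5, an adhesion receptor, ran from 463.9 to 645.5 CPM. Sema3c, a semaphorin, ran from 446 to 683 CPM. After thinning each member to 500 UMIs, Itm2a was found in 68.3 to 87.7% of members and 0.902 to 10.2% of marker-negative cells, and Abcb1a in 27.6 to 41.6% and 0.180 to 1.49%.

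Barrier transporters were high in the members of all 6 libraries. The 20 genes of this list together held 7957, 8799 and 7492 CPM in libraries 1 to 3 and 8794, 7602 and 5873 CPM in libraries 7 to 9, beside 726 to 976 CPM in marker-negative cells. The sums of the stems overlapped. Of the 20, 15 were at least 2 times higher in members than in marker-negative cells in every library, after adding 10 CPM, beside 11.6% of all genes of 50 CPM or more. For each gene the levels of libraries 1 to 3 were set beside those of libraries 7 to 9, and a gene is called apart where all 3 values of one stem lay above all 3 of the other. This measure was added after the values had been seen. Over all genes of 50 CPM or more, 13.8% were apart with libraries 1 to 3 above and 15.4% with libraries 1 to 3 below, and the counts of the lists are read against these shares. Of the 20 barrier transporters, 3 were apart above and 5 below.

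Slc2a1, the glucose transporter GLUT1, stood at 1842, 2399 and 1648 CPM in libraries 1 to 3 and at 1426, 1421 and 789.8 CPM in libraries 7 to 9. All 3 intervals of libraries 1 to 3 lay above those of libraries 7 to 9. Its stems overlapped once members were thinned to 500 UMIs, when it was found in 48.3 to 57.8% and 34.2 to 51.9% of members. Mfsd2a, a lipid transporter that keeps transcytosis low, and Slc38a3, a glutamine transporter, were also apart above, but overlapped in 3 of 9 other settings each, including the one with marker-negative levels taken off.

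Slc16a4, a monocarboxylate transporter, stood at 56.2, 73.3 and 87.1 CPM in libraries 1 to 3 and at 170.3, 120.5 and 125 CPM in libraries 7 to 9. Slc38a5, a glutamine transporter of venous and capillary cells, stood at 84.4, 78.2 and 105 CPM against 166, 152 and 125 CPM. Slc40a1, the iron exporter ferroportin, stood at 183, 137 and 195 CPM against 295, 238 and 216.5 CPM. Slc39a10, a zinc importer, stood at 267, 302.9 and 310.0 CPM against 377, 379 and 346 CPM. Libraries 7 to 9 were higher for these 4 genes in all 9 other settings too, while the counting intervals of single libraries overlapped. Slc6a6, the taurine transporter, was at 717, 479 and 766 CPM against 1021, 780.8 and 911 CPM, and overlapped in 3 of the 9 other settings.

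The other transporters overlapped between the stems. Slc7a5, the large neutral amino acid transporter, ran from 287 to 745 CPM, and its partner chain Slc3a2 from 300.1 to 806 CPM, both lowest in library 9. Slco1c1, a thyroxine transporter, ran from 398 to 586 CPM. The efflux pump Abcg2 ran from 633 to 1207 CPM, and the transferrin receptor Tfrc from 105 to 170.3 CPM. Slc22a8, an organic anion transporter, ran from 115 to 274 CPM.

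**Figure D2:**
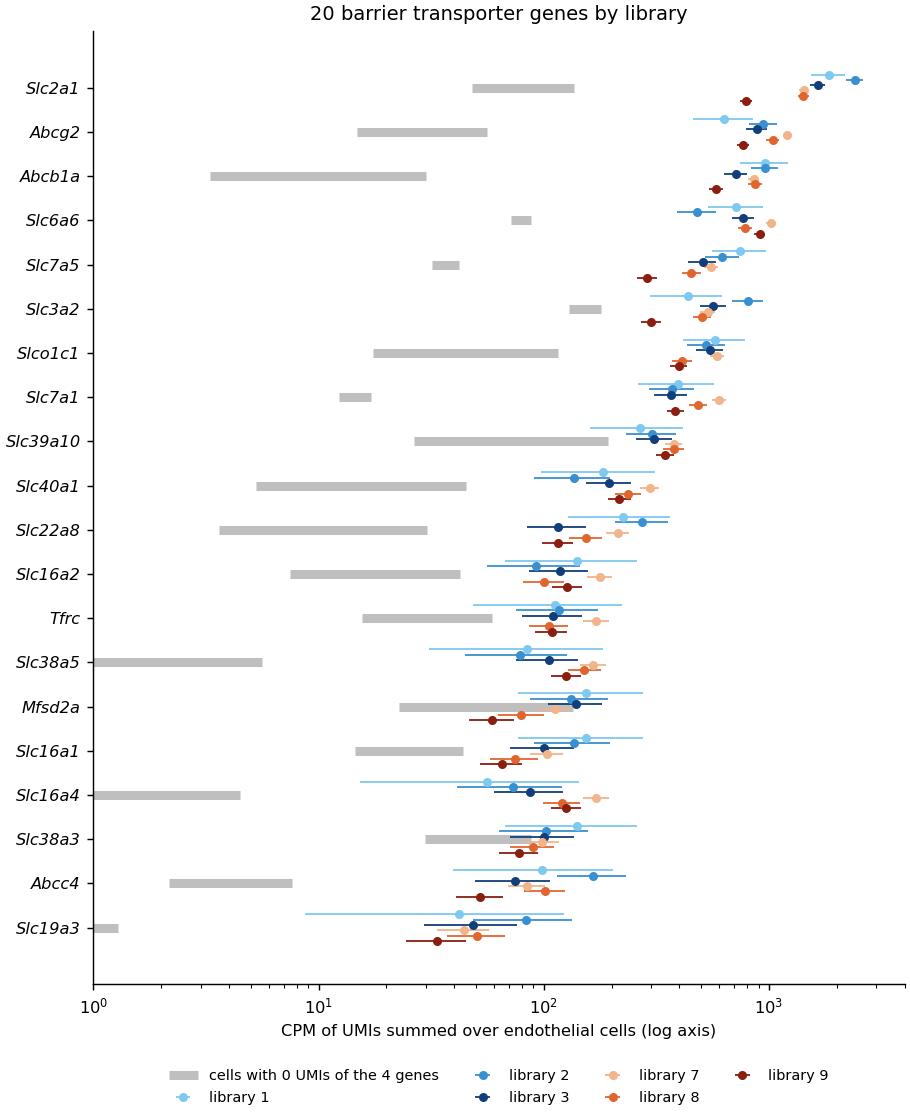
Levels of the 20 barrier transporter genes in the endothelial cells of each library, in CPM on a log axis, with exact Poisson 95% intervals. Grey bars span the 6 libraries' levels in cells with 0 UMIs of the 4 genes and are drawn from 1 CPM where the lowest is below it. Slc2a1 reaches 2399 CPM, the highest level, and lies at 789.8 CPM in library 9, where Slc6a6 is at 911 CPM, and for most genes the points of libraries 1 to 3 (blue) and 7 to 9 (orange to red) overlap.

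The junction genes outside the rule overlapped between the stems. Cldn5 is not among them, since it is a rule gene. Its levels, given above as a description of cells chosen on it, were higher in libraries 1 to 3. None of the 9 other junction genes of 50 CPM or more was apart in either direction, beside 13.8% and 15.4% of all genes. Cdh5, the cadherin of endothelial contacts, stood at 224.9, 195 and 218 CPM in libraries 1 to 3 and at 257, 213 and 211 CPM in libraries 7 to 9. Ocln, a tight junction protein, ran from 155 to 267 CPM. Tjp1, a scaffold of tight junctions, ran from 278 to 534 CPM. Pecam1, an adhesion protein of endothelial contacts, ran from 146 to 313 CPM. Cdh5 and Pecam1 reached at most 13.9 and 20.9 CPM in marker-negative cells. The highest level over the lowest, after adding 10 CPM to both, had a median of 1.88 over the 9 genes and 1.80 over all genes of 50 CPM or more. Marveld2 and Cgn were near 0, at no more than 6.84 and 0.746 CPM.

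Plvap, the protein of fenestral diaphragms, was near 0 in the members of all 6 libraries, beside 0.448 to 19.2 CPM in marker-negative cells. It had 3, 3 and 4 UMIs in libraries 3, 7 and 9, which is 7.69, 2.28 and 2.99 CPM, and 0 UMIs in libraries 1, 2 and 8, where the upper ends of the intervals were 51.9, 18.0 and 3.97 CPM. Cav1, the main coat protein of caveolae, stood at 127, 107 and 197 CPM in libraries 1 to 3 and at 244.0, 208 and 231 CPM in libraries 7 to 9. Cav2, its partner, stood at 112, 249 and 246 CPM against 572.5, 394 and 332 CPM, with 8 UMIs behind the value of library 1. Both were apart below. Cav2 stayed so in all 9 other settings, whereas Cav1 overlapped when members with markers of another cell type were left out and when marker-negative levels were taken off. Igfbp3, a binding protein of growth factors, ranged from 25.1 CPM in library 7 to 195 CPM in library 2.

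Among receptors, Eng and Acvrl1, which act together in BMP9 signalling, were higher in libraries 1 to 3. Eng stood at 253, 308 and 348.5 CPM against 246, 191 and 134 CPM, and Acvrl1 at 281, 278.5 and 246 CPM against 244.0, 175 and 150.04 CPM. Acvrl1 was apart by a narrow gap and overlapped as a mean over members and after thinning, when its log2 ratio fell from 0.64 to 0.15. Bmpr2, a BMP receptor, was lower there, at 211, 259 and 266 CPM against 328, 330.2 and 311 CPM. Nrp1, a co-receptor of VEGF and semaphorins, stood at 70.3, 112 and 138 CPM against 175, 206.5 and 179 CPM, and Tgfbr2 at 42.2, 73.3 and 71.7 CPM against 85.9, 114 and 97.0 CPM. With marker-negative levels taken off, Nrp1 overlapped and Tgfbr2 changed direction, to a log2 ratio of 0.16. Tgfbr2 also overlapped without members carrying another type's markers. Over the 13 receptor genes of 50 CPM or more, 2 were apart above and 3 below, beside 13.8% and 15.4% of all genes. Eng and Bmpr2 stayed apart in all 9 other settings. Kdr, the main VEGF receptor, varied little, from 129.9 to 154 CPM, and Tek, the angiopoietin receptor, ran from 141 to 259.8 CPM with overlap.

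Klf2, a transcription factor induced by blood flow, was the most abundant gene of its list. It stood at 2137, 2350.0 and 1822 CPM in libraries 1 to 3 and at 1370.0, 1473 and 1088 CPM in libraries 7 to 9. All 3 intervals of libraries 1 to 3 lay above those of libraries 7 to 9, at 1690.3 CPM and more against 1554 CPM and less. Marker-negative cells held 38.3 to 303 CPM, and log2 of the ratio of medians, after adding 10 CPM, was 0.64 and ran from 0.55 to 0.95 in the 9 other settings. After thinning, Klf2 was found in 54.4 to 63.4% of members of libraries 1 to 3 and 44.1 to 48.8% of those of libraries 7 to 9. Sox18, which acts with Sox17 in vessel identity, stood at 211, 215 and 251 CPM against 158, 146 and 97.8 CPM. Klf6 was apart above as well, at 246 CPM or more against 224 CPM or less, but not after thinning or with a threshold of 5 UMIs. Fli1, an ETS factor, was apart below, at 112, 151 and 187 CPM against 225, 213 and 195 CPM, and overlapped with marker-negative levels taken off and without members carrying another type's markers. Over the 11 factors of 50 CPM or more, 3 were apart above and 1 below, beside 13.8% and 15.4% of all genes. The other 7 overlapped. Among them Epas1, the factor HIF-2α, ran from 561 to 1026 CPM, Erg from 63.5 to 109 CPM and Klf4 from 192 to 366 CPM.

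**Figure D3:**
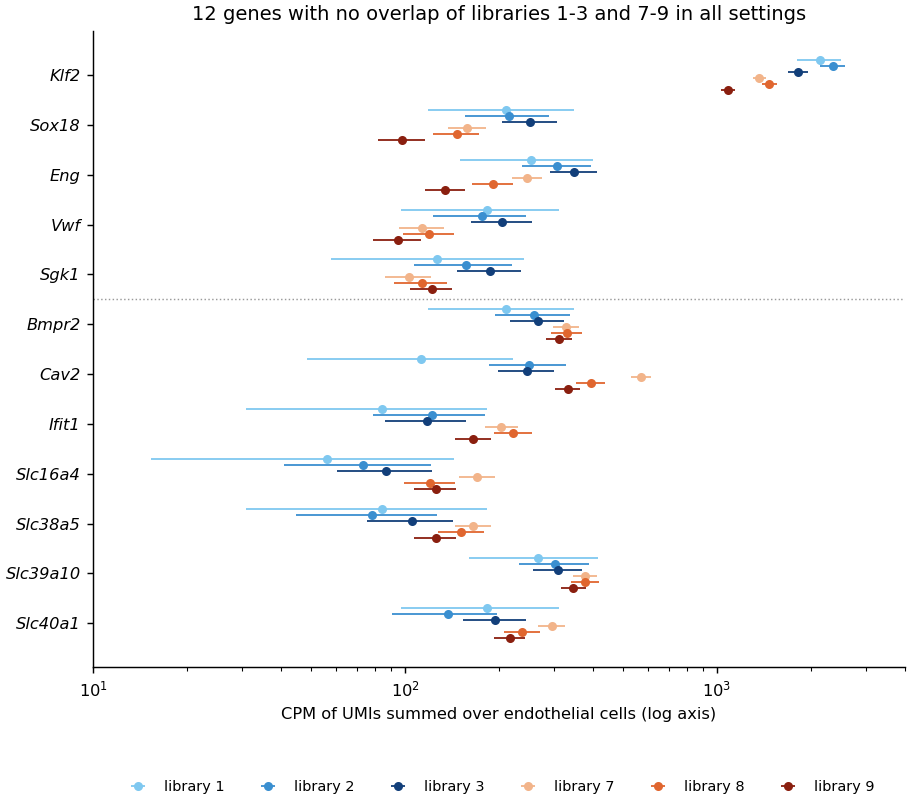
Levels in CPM, on a log axis with exact Poisson 95% intervals, of 12 genes whose levels in libraries 1 to 3 and 7 to 9 did not overlap in the main setting or in 9 others. The 5 genes above the dotted line are higher in libraries 1 to 3, led by Klf2 at 1822 CPM or more against 1473 CPM or less, and the 7 below it are higher in libraries 7 to 9. Klf2 alone among the 12 has all intervals of the stems apart.

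Arterial genes varied within each stem. None of the 7 arterial genes of 50 CPM or more was apart, beside 13.8% and 15.4% of all genes, and the median log2 ratio of libraries 1 to 3 over 7 to 9 was 0.40, beside -0.01 over all genes. Gkn3, a gene of arterial brain endothelium, stood at 323, 264 and 1004 CPM in libraries 1 to 3 and at 617, 270.0 and 668 CPM in libraries 7 to 9. Library 3 was highest and library 2 lowest, so the spread within a stem exceeded that between them. Mgp, an inhibitor of calcification found in arterial endothelium and smooth muscle, stood at 548 CPM in library 1, 889 and 881 CPM in libraries 2 and 3 and 391, 555 and 389 CPM in libraries 7 to 9, with 160.2 to 803 CPM in marker-negative cells. Edn1, the vasoconstrictor endothelin, stood at 295, 215 and 299.8 CPM against 141, 226 and 116 CPM. The stem medians differed by 1.15 on the log2 scale for Mgp and 1.02 for Edn1, and in both library 8 overlapped with libraries 1 to 3. Bmx, a kinase of arterial cells, ran from 35.8 to 128 CPM.

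Members were then classed as arterial or venous by at least 2 UMIs of the 15 arterial or of the 10 venous genes. Such a class is a range of summed UMIs and not a cell type. Over the 7 arterial genes of 50 CPM or more, the median lowest fold over marker-negative cells was 1.53. Over the 5 venous genes it was 0.981, so these lists are not particular to endothelial cells. The part of other cells' RNA in the classes was not tested. Arterial members made up 19.4, 20.3 and 37.2% in libraries 1 to 3 and 27.3, 26.6 and 34.1% in libraries 7 to 9. After thinning to 500 UMIs the shares were 18.3, 20.5 and 25.8% against 15.01, 17.2 and 17.9%. All 3 thinned shares of libraries 1 to 3 were above those of libraries 7 to 9, but the intervals of libraries 1 and 2, from 60 and 161 members, reached down to 9.52 and 14.5%. Venous members made up 6.202, 8.22 and 16.4% in libraries 1 to 3 and 19.2, 16.9 and 21.1% in libraries 7 to 9. Thinned, they were 6.67, 8.07 and 6.51% against 6.64, 7.98 and 7.67%, so the unthinned difference was not seen at equal depth. Some members passed both lists, from 2 in library 1 to 70 in library 9, and were left out of the following levels.

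**Figure D4:**
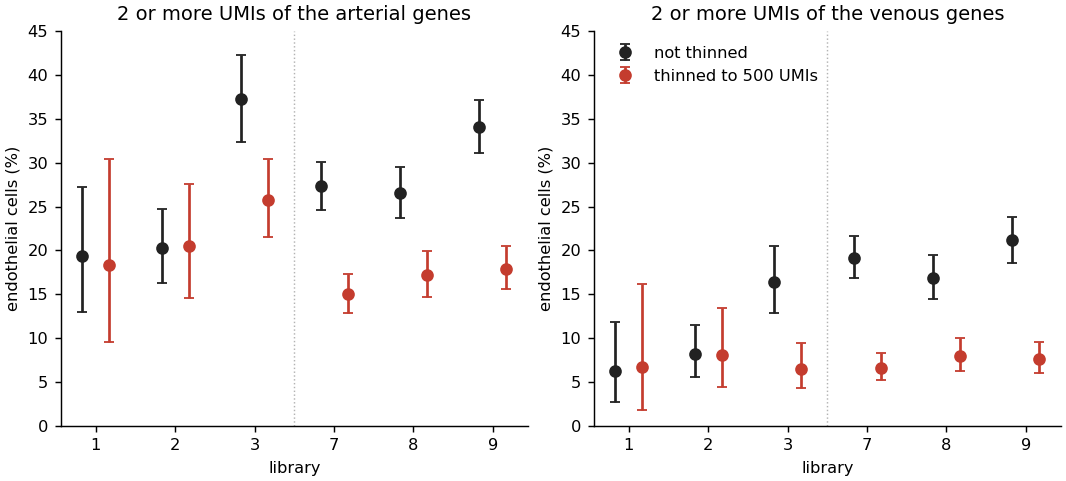
Percent of endothelial cells with 2 or more UMIs of the arterial genes (left) and of the venous genes (right) in each library, before thinning (black) and at 500 UMIs per cell (red), with exact Clopper-Pearson 95% intervals. The venous shares run from 6.202 to 21.1% before thinning and from 6.51 to 8.07% after it.

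Levels of genes on neither list were set side by side in arterial and venous members. Since a class is cut on the genes of its list, those genes are no finding. Slc38a5 and Gkn3 are such genes. Car4, a carbonic anhydrase of capillary endothelium that is on neither list, had a median over the 6 libraries of 352 CPM in arterial members, 777 CPM in members of neither class and 1156 CPM in venous members. Slc7a5 stood at 292, 648 and 660.4 CPM in the same order. Itm2a stood at 2512, 4391 and 5979 CPM. Cxcl12, a chemokine, was lowest in venous members at 259 CPM, against 610 CPM in arterial members and 867 CPM in those of neither class. Rgcc, a capillary gene, stood at 551, 1016 and 522 CPM. Library 1 gave 6 venous and 23 arterial members, so its values carry the least weight. Slco1c1 differed little, at 517, 525 and 541 CPM. Median depths differed between the classes, at 542 to 1178 UMIs in arterial, 690.5 to 1252 UMIs in venous and 419.5 to 975 UMIs in the remaining members, and their part in these levels was not tested.

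Of the 5 venous genes of 50 CPM or more, 1 was apart above and 2 below, beside 13.8% and 15.4% of all genes. Vwf, the clotting protein von Willebrand factor, stood at 183, 176 and 205 CPM in libraries 1 to 3 and at 113, 119 and 94.8 CPM in libraries 7 to 9. Slc38a5 lay the other way, as given above. Of the 6 capillary genes, 2 were apart above, Mfsd2a and Spock2, a matrix proteoglycan at 904 to 1336 CPM against 531 to 894 CPM. Spock2 overlapped in 5 of the 9 other settings. Rgcc, Car4 and Cxcl12 overlapped, at 546 to 1009 CPM over all 6 libraries.

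Genes of the Wnt pathway and its barrier program mostly overlapped in level between the stems. Of 12 genes of 50 CPM or more, 1 was apart, with libraries 1 to 3 below, beside 15.4% of all genes. That gene was Tspan12, a partner of the receptor Fzd4, at 14.1, 78.2 and 84.6 CPM against 170.3, 122 and 112 CPM, and 1 UMI was behind the value of library 1. Its stems overlapped with marker-negative levels taken off. Lef1, a transcription factor of the pathway, ran from 151 to 224 CPM and Axin2, a target gene of the pathway, from 61.6 to 155 CPM. Fzd4 ran from 76.1 to 108 CPM. Adgra2 and Reck, which receive the Wnt7 signal, ran from 35.9 to 70.3 CPM and from 38.8 to 70.3 CPM.

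Genes that respond to activity, stress and hormones were also set beside marker-negative cells. Of 8 immediate early genes, 1 was at least 2 times higher in members in every library. The same held for 0 of 10 chaperones, 0 of 5 clock genes and 1 of 5 glucocorticoid targets and metallothioneins, beside 11.6% of all genes. The median lowest fold of these lists was 0.877, 0.687, 0.468 and 1.18 in the same order, beside 0.884 over all genes. The counts are small and were not tested. Of the 8 immediate early genes of 50 CPM or more, 2 were apart above, Jund and Ier3, beside 13.8% of all genes. Ier3 stood at 141, 156 and 197 CPM in libraries 1 to 3 and at 74.5, 88.2 and 55.2 CPM in libraries 7 to 9, with 11.4 to 28.7 CPM in marker-negative cells, and overlapped after thinning. Fos, at 41.0 to 166 CPM in members, was at 87.9 to 362 CPM in marker-negative cells. Cdkn1a, a cell cycle inhibitor and glucocorticoid target, stood at 323, 728 and 407 CPM against 165, 284 and 166 CPM, beside 18.8 to 62.1 CPM in marker-negative cells. It overlapped only once members were thinned, with a log2 ratio of 1.16 beside 1.24 before. Sgk1, a kinase induced by glucocorticoids, stood at 127, 156 and 187 CPM against 103, 113 and 122 CPM, with 55.2 to 85.1 CPM in marker-negative cells. The shares of thinned members with Sgk1 overlapped, at 5.59 to 9.11% against 5.18 to 5.77%. Cdkn1a and Sgk1 were the genes apart above among 5 of the glucocorticoid list, beside 13.8% of all genes, and the rest overlapped. The metallothionein Mt1 ran from 1820.1 to 3219.7 CPM with overlap, beside 2374 to 8211 CPM in marker-negative cells.

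Of the 10 chaperones of 50 CPM or more, 4 were apart below and 1 above, beside 15.4% and 13.8% of all genes. All 5 (Hsp90aa1, Hspa5, Hspe1, Pdia3 and Calr) lost this with marker-negative levels taken off. Hspe1 kept it in 1 of 9 other settings. Pdia3 changed direction with marker-negative levels taken off. Hsp90aa1 and Hspe1 changed direction without members carrying another type's markers. Hsp90aa1, a heat shock protein, stood at 211, 191 and 307.5 CPM against 496, 584.0 and 739 CPM, but marker-negative cells held 456 to 1007 CPM and the stems overlapped in 5 of 9 other settings. Of the 5 clock genes, Tef was apart above, beside 13.8% of all genes. Tef overlapped in 4 of the 9 other settings and changed direction, to a log2 ratio of -0.45, with marker-negative levels taken off. Dbp, a clock output gene, ran from 82.0 CPM in library 3 to 268 CPM in library 7 with overlap. Of the 9 MHC class I and interferon genes, 3 were apart below and 1 above, beside 15.4% and 13.8% of all genes. The gene above was Ly6e, at 1181 CPM or more against 1147 CPM or less. Ifit1, an interferon target, stood at 84.4, 122 and 118 CPM against 204, 223 and 166 CPM, beside 0.991 to 14.6 CPM in marker-negative cells, and stayed apart in all 9 other settings. Ifitm3, an antiviral membrane protein, stood at 1012, 1153 and 1276 CPM against 1631, 1727 and 1388 CPM, beside 46.3 to 546 CPM in marker-negative cells, and overlapped with those levels taken off. B2m, the light chain of MHC class I, was at 1260.5 to 1396 CPM against 1442 to 1885 CPM, with up to 1598 CPM in marker-negative cells, and its log2 ratio turned from -0.30 to 0.98 with those levels taken off. The stems also overlapped without members carrying another type's markers, erythroid genes counted. Isg15 and H2-K1 overlapped.

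Over the 118 genes of the 14 lists with 50 CPM or more, 17 were apart above and 19 below. Set beside 13.8% and 15.4% of all genes, these shares lie near the background and are not a result about the lists. The balance moved with the setting, to 11 above and 23 below after thinning and to 25 above and 13 below with marker-negative levels taken off. All intervals of the stems were apart for 2 list genes above, Klf2 and Slc2a1, and for 1 below, Hsp90aa1, of 118. Over all 2949 genes this held for 49 above and 31 below. The 14 genes apart in the main and all 9 other settings, among list genes and the most varying genes, were Eng, Klf2, Sgk1, Sox18 and Vwf above and Bmpr2, Cav2, Gm10076, Gm9844, Ifit1, Slc16a4, Slc38a5, Slc39a10 and Slc40a1 below. Of these, Cav2, Gm10076 and Gm9844 were among the genes taken for varying most. The share of all 2949 genes that stay apart in every setting is not given here, so the number has no background and is a description.

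Of 1488 genes of 100 CPM or more, 445 varied at least 2 times from the lowest to the highest library after adding 10 CPM, 29.9% of them. Without library 1 the number was 268. The 12 genes with the largest ratios were taken from those not higher in marker-negative cells. Among them, Rps18-ps3, Rpl27-ps3 and Rpl36-ps3 are by name copies of ribosomal protein genes. Whether Gm10076, Gm2000, Gm10269 and Gm9844 are such copies was not checked. Gm10076 stood at 942, 664.5 and 543 CPM in libraries 1 to 3 and at 2887, 2765 and 2449 CPM in libraries 7 to 9. Gm2000 stood at 492, 235 and 174 CPM against 1577, 1421 and 999.5 CPM, and Gm10269 at 70.3, 39.1 and 12.8 CPM against 328, 248 and 163 CPM. Rps18-ps3, Rpl27-ps3, Rpl36-ps3 and Gm9844 were higher in all of libraries 7 to 9 as well. Gm10076 showed the same split in the levels of marker-negative cells, at 186 to 440.3 CPM against 1714 to 1942 CPM. In thinned marker-negative cells, the shares with Gm9844 overlapped, at 0.855 to 3.33% against 1.99 to 4.32%. Those with Gm10076, Gm2000, Gm10269, Rps18-ps3, Rpl27-ps3 and Rpl36-ps3 were higher in all of libraries 7 to 9. The split of these latter genes is therefore not confined to endothelial cells. Reads of gene copies can be counted for their parent genes or lost, so the levels of copies are uncertain. The remaining genes of the 12 were Ly6c2, AY036118, Cav2, 8430408G22Rik and Cdkn1a.

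RNA of astrocytes, neurons and ependymal cells differed between the stems in the members and in marker-negative cells alike. The 5 astrocyte markers summed to 1574, 1837 and 1256 CPM in members of libraries 1 to 3 and to 237, 388 and 715 CPM in those of libraries 7 to 9, beside 3616 to 5429 CPM and 1294 to 2157 CPM in marker-negative cells. The 5 neuron markers summed to 281, 635 and 904 CPM against 59.3, 45.2 and 67.9 CPM. Slc17a7, the vesicular glutamate transporter of cortical excitatory neurons among others, stood at 70.3, 92.8 and 213 CPM against 0, 2.15 and 1.49 CPM. Of the 4 ependymal markers, Tmem212, Foxj1 and Ccdc153 were at 0 in libraries 1 to 3, and Tmem212 was at 239, 332 and 279.9 CPM in libraries 7 to 9. The ependymal sum was 44.0 to 127 CPM against 813 to 1051 CPM. Pericyte markers summed to 1799, 2355 and 1696 CPM against 1281, 1682 and 1533 CPM, so libraries 1 to 3 were above by a narrow gap, while marker-negative cells held 288 to 361 CPM against 1246 to 2004 CPM. Macrophage and fibroblast markers were low and apart the other way, at 29.3 to 42.2 CPM against 73.1 to 185 CPM and at 0 to 12.8 CPM against 19.4 to 89.6 CPM. Smooth muscle markers summed to 582 to 902 CPM and microglial markers to 537 to 1367 CPM, both with overlap. Oligodendrocyte markers stayed at 14.1 to 24.4 CPM. Of the pituitary hormone genes, Gh stood at 112, 34.2 and 48.7 CPM and Prl at 28.1, 9.77 and 12.8 CPM in libraries 1 to 3, and both at 0 in libraries 7 to 9, while Pomc ran from 29.3 to 93.5 CPM with overlap. Hemoglobin and Alas2 summed to 18646 to 54686 CPM, highest in library 1. The share of members with 3 or more of these UMIs went the other way, at 6.98, 11.2 and 8.85% in libraries 1 to 3 and 49.8, 28.9 and 35.8% in libraries 7 to 9. The part of this RNA in the levels above was not tested.

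A total of 2058 of 3787 members, 54.3%, held 3 or more UMIs of another type's markers. The share was 34.1, 38.4 and 46.4% in libraries 1 to 3 and 56.3, 44.7 and 73.2% in libraries 7 to 9. With erythroid genes left aside it was 36.0% in all, and 27.9, 31.5 and 42.2% in libraries 1 to 3 and 22.4, 25.4 and 61.0% in libraries 7 to 9. Library 9 was highest in both counts, and also with Ttr set aside from the second, at 48.9% (45.7 to 52.1%), a count added after the values had been seen. Ttr, the transthyretin of choroid plexus, stood at 38364 CPM in its members and at 25.1 CPM or less in those of the other 5 libraries. Of its members, 275 (28.5%) held 3 or more Ttr UMIs, and in library 9 microglial and pericyte markers reached 3 UMIs in 16.4 and 22.5% of members. In 20 members Ttr took 5% or more of the UMIs, a bound set after the values had been seen, and these held 49602 of its 51394 Ttr UMIs. Their median depth was 7387.5 UMIs. Of the 20, 18 had a UMI of Ly6c1, 17 of Slco1a4, 5 of Cldn5 and 5 of Flt1, and 17 had one of Folr1, a folate receptor of choroid plexus. Without them, Ttr in library 9 was at 1498 CPM, and 22 rather than 19 list genes were apart below. No doublet caller was run, and cells joined in 1 droplet were not told apart from endothelial cells with free RNA.

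**Figure D5:**
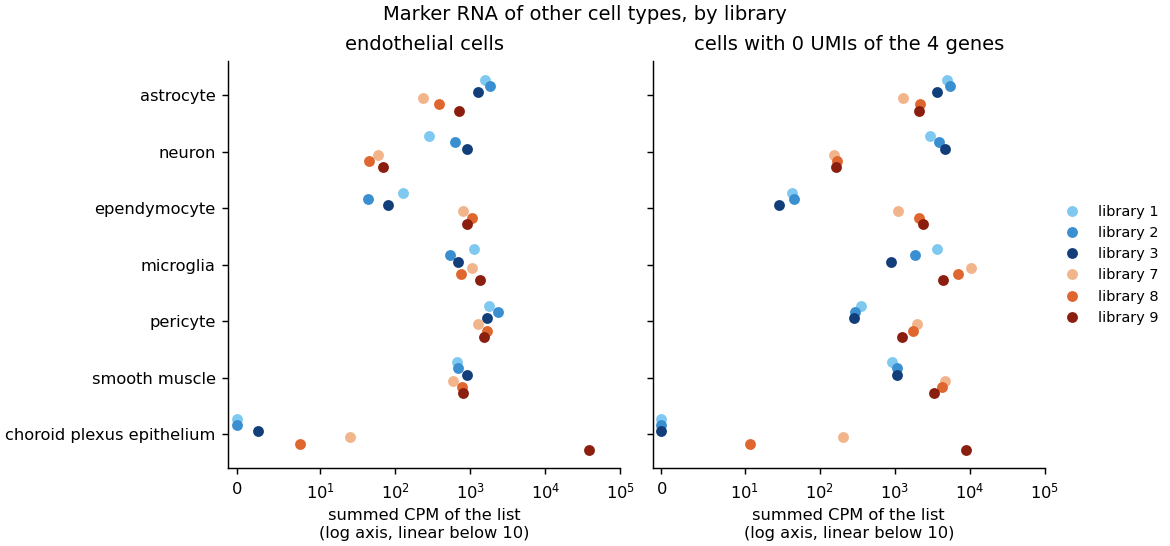
Summed CPM of the marker lists of 7 other cell types in the endothelial cells (left) and in cells with 0 UMIs of the 4 genes (right) of each library, on an axis that is linear below 10 and logarithmic above. Astrocyte and neuron markers are higher in libraries 1 to 3 (blue) in both panels, at 1256 to 1837 CPM against 237 to 715 CPM for astrocyte markers in endothelial cells, and Ttr stands out in library 9.

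Whole profiles of endothelial cells were close between libraries. Over genes found in any member, Pearson's r of log2(CPM + 10) had a median of 0.911 for the 15 pairs of libraries. Genes are not independent, and r follows depth, so it is a description. The 6 pairs sharing a stem ran from 0.868 to 0.977 with a median of 0.955, and the 9 pairs of different stems from 0.856 to 0.919 with a median of 0.910. Equal parts of 1 library's members, drawn at random, gave 0.718 to 0.974, lowest in the small library 1. With 60 members of each library thinned to 500 UMIs, pairs sharing a stem ran from 0.683 to 0.719 and pairs of different stems from 0.653 to 0.691, so the ranges overlapped.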

How the data were processed

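The authors aligned and counted reads with Cell Ranger 2.2.0 against GRCm38, per the labels, and deposited 1 table of UMI counts with 18634 genes and 29571 cells. R 3.5.3 is also named in the submitters' processing notes. The annotation release is not given in the sources used here. Cells were filtered before deposit, and whether doublets were removed was not checked.

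From these counts, UMIs were summed over the members of each library and scaled to CPM. Exact Poisson 95% intervals were computed for levels and exact Clopper-Pearson intervals for shares with scipy 1.17.1, in Python 3.11.15 with pandas 2.3.3 and numpy 2.4.6. Cells were thinned by drawing 500 UMIs without replacement. An edgeR test of cortex against brainstem had been planned for the case that names tie all 6 libraries to samples, and was not made. The genes named are those of the fixed lists, the 10 with the largest lowest fold over marker-negative cells, the 12 that vary most among libraries and the 10 most abundant. The scripts were tested on simulated data.

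Members and lists were chosen with earlier results of these data known. The side-by-side of libraries by code stem with its minimum of 50 CPM, the count of genes varying 2 times, the bound of 5% Ttr, thinning to 300 UMIs and leaving libraries out of the list counts were added after values had been seen. Another type's markers include the erythroid genes, and the same with these left aside was also added after values had been seen. Some genes of the lists are not reported here by name, and the counts over the lists include them.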

Additional observations from a re-analysis of the deposited data

Results flagged for a closer look

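Plvap, the gene of fenestrated endothelium, was found in libraries 4, 5 and 6, which entered no comparison and are tied to no sample. Among their cells past the same threshold it stood at 609 CPM (483 to 758) in library 4, 59.2 CPM (21.7 to 129) in library 5 and 174 CPM (97.4 to 287) in library 6, against 0 to 7.69 CPM in the endothelial cells of the 6 libraries described above. It was found in 24 of 132, 3 of 182 and 7 of 49 cells. Its level in the other cells of these libraries is not given here, so the part of free RNA was not tested. The growth hormone gene Gh stood at 11827 to 57035 CPM in the same cells, and its part in the Plvap level was not tested.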

How the results depend on the processing

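The shares of endothelial cells moved with the threshold and the depth, and every share of libraries 7 to 9 stayed above every share of libraries 1 to 3 except without members carrying another type's markers, when the shares were 3.30, 7.09 and 7.50% against 12.2, 14.2 and 6.98%. With 2 UMIs the shares that moved were 6.49 and 13.4% in libraries 1 and 2 and 30.5, 28.2 and 29.6% in libraries 7 to 9. With 5 UMIs they were 2.99, 8 and 12.2% against 25.5, 21.7 and 20.6%, without members carrying another type's markers but with erythroid genes left aside 3.61, 7.87 and 8.09% against 21.7, 19.1 and 10.1%, and among cells of 1000 UMIs or more 3.07, 6.93 and 11.9% against 29.9, 28.1 and 27.7%. Thinned to 500 UMIs, libraries 3, 7, 8 and 9 moved to 12.2, 23.9, 22.2 and 18.2%, and thinned to 300 UMIs the 6 shares were 3.66, 9.29, 8.23, 16.8, 15.97 and 11.8%. The highest share over the lowest was 8.52 with 5 UMIs and 9.73 in cells of 1000 UMIs or more. Of the listed endothelial cells, 90.6% were chosen with 5 UMIs.

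List genes apart went from 17 above and 19 below to 11 and 23 after thinning and to 25 and 13 with marker-negative levels taken off. Leaving out 1 library gave 17 to 28 above (28 without library 3, 26 without library 7 or 8) and 19 to 26 below, and fewer libraries make it easier for levels not to overlap. Genes varying 2 times or more were 673 after thinning, 1088 with a minimum of 50 CPM and 268 to 428 with 1 library left out, 268 without library 1. The median r was 0.863 for genes of 50 CPM or more, 0.852 with 1 CPM added and 0.684 with equal numbers of thinned members. With 3 UMIs the arterial shares ran from 10.9 to 27.3% and the venous shares from 1.55 to 10.7%, and thinned the highest were 25.8 and 8.07%.

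The log2 ratio of libraries 1 to 3 over 7 to 9 changed sign with marker-negative levels taken off for AY036118 (-0.65), B2m (0.98), Pdia3 (0.90), Tef (-0.45) and Tgfbr2 (0.16). It did so without members carrying another type's markers for Hsp90aa1 (0.073) and Hspe1 (0.26), for Hspe1 with erythroid genes left aside (0.037) and as a mean over members (0.24), and for Klf6 after thinning (-0.090). The cause was not tested, and marker-negative levels include the own expression of those cells. Of the other values of single genes, 339 kept their call, 63 lost it and 2 gained it. No paired analysis was possible because the columns carry no replicate numbers and no test was made. Library 1, with 129 shallow members, limits every comparison it enters.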
